A study of Rattus norvegicus with 12 samples.

Results

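Circular RNAs (circRNAs) of genes that encode protein kinases, lipid kinases and their partners were read in rat liver. The hosts, meaning the genes from which the circles are spliced, were chosen by name. They carry the symbols of the Map2k, Map3k, Map4k, Mapk, Stk, Prk, Camk, Csnk, Cdk, Hipk, Rps6k, Pik3, Pip4k and Pip5k series, without Map3k5, Pik3c2a and Pik3c2g, and rows named by an Ensembl identifier were added where they shared a transcript with such a host. This gave 96 of 6501 hosts, with 290 of 21876 table rows, 283 of 21068 back-splice junctions and 3092 of 284534 back-splice reads. The kinase hosts were thus 1.48% of the hosts and held 1.09% of the reads.

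All 12 libraries came from the liver of wild type Wistar rats made diabetic. The rats ate a diet with 60% of its calories as fat for 4 weeks and received streptozotocin, a toxin of the insulin-secreting beta cells, once at 35 mg/kg after 16 h of fasting. Fasting glucose above 16.7 mmol/L 3 days later qualified an animal as diabetic, and animals matched by body weight were then randomised to a sham operation or to sleeve gastrectomy, in which the greater part of the stomach is taken out. The 3 groups were relapse (2 libraries, diabetes that returned after sleeve gastrectomy), SG (5 libraries, sleeve gastrectomy, sampled 3 months after surgery) and sham (5 libraries, sham operation). The rats of every group thus share the diet and the streptozotocin, and no group without diabetes was analysed here. The sources used here give neither age, sex and feeding state nor when the relapse and sham rats were sampled. Nor do the labels tie each library to its own animal, so that p-values reflect how these samples vary, which may be technical.

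Protein kinases transfer phosphate from ATP to proteins and work in chains: MAP kinase kinase kinases activate MAP kinase kinases, which activate MAP kinases. Lipid kinases such as phosphoinositide 3-kinase (PI3-kinase) phosphorylate membrane lipids, and in liver insulin acts through PI3-kinase while AMP-activated kinase (AMPK) and protein kinase A (PKA) answer to low energy and to glucagon. A circRNA forms when the end of an exon is spliced back to the start of the same or an earlier exon, and it is seen as a read across that junction. A back-splice read therefore measures the circle, not the linear mRNA or the kinase protein.

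The name-based rule was checked against what the genes encode. Of the 96 hosts, 81 encode kinases or kinase-like proteins and held 2616 reads. A further 7 encode regulatory subunits of kinases (206 reads), namely Pik3r1, Pik3r4, Prkab1, Prkag1, Prkag2, Prkar1a and Prkar2a. The other 8 have no kinase domain and held 270 reads: the scaffolds Mapk8ip1 and Mapk8ip3, Prkra and Prkrip1, which bind the RNA-dependent kinase PKR, the PI3-kinase adaptor Pik3ap1, and Cdk5rap1, Cdk5rap2 and Cdk5rap3. Prkra was the fourth most-read host, so the label of kinase hosts does not hold for one of its leading members.

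The libraries held 18176 to 37229 back-splice reads, of which 172 to 424 came from kinase hosts. A count of 0 allows up to 165 reads-per-million in the smallest library, by counting error only. Hepatocyte markers were read as circRNAs in 11 of 12 cases, with summed levels of 13214 to 16724 counts-per-million (CPM) in relapse, 15078 to 20609 in SG and 13549 to 24154 in sham libraries, and Ttr was at 0. Of the Kupffer cell markers 3 of 8 were read, at 0 to 327, 0 to 1001 and 0 to 542 CPM in relapse, SG and sham, with Cd68, Cd163, Clec4f, Marco and Vsig4 at 0. Of the endothelial markers 3 of 6 were read (363 to 392, 122 to 730 and 0 to 406 CPM), with Pecam1, Lyve1 and Cdh5 at 0. Of the stellate cell markers 3 of 10 were read (109 to 262, 0 to 313 and 0 to 301 CPM), with Col1a1, Col1a2, Dcn, Lum, Des, Acta2 and Lrat at 0. Of the lymphocyte and granulocyte markers Ptprc alone gave 1 read, and none of the 5 cholangiocyte and 9 pancreas and gut markers was read. These are reads of circles, so a 0 does not show that the gene was silent or the cell type absent. In bulk liver, fewer cells of a type and less RNA per cell cannot be told apart.

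The kinase hosts took similar shares of the reads in the 3 groups. The share was 1.10% and 1.14% in the relapse libraries, 0.874%, 1.08%, 1.20%, 1.06% and 1.14% in the SG libraries, and 0.993%, 0.946%, 1.23%, 1.26% and 1.03% in the sham libraries. Group means were 1.12 ± 0.0245% in relapse (SD, n = 2), 1.07 ± 0.123% in SG (n = 5) and 1.09 ± 0.144% in sham (n = 5), and the ranges overlapped. Most members were read rarely: 61 hosts had 10 reads or fewer over all libraries and 18 had a single read (18.8% of members, against 15.2% of all hosts). At the other end, 10 hosts were read in all 12 libraries (10.4%, against 9.58% of all hosts). The 4 most-read hosts, Hipk3, Stk3, Hipk2 and Prkra, held 41.9% of the kinase reads and ranked 83, 113, 188 and 241 among all hosts, and the 12 most-read held 68.4%.

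By family, Hipk led with 729 reads from 3 hosts, followed by Prk (631 reads, 20 hosts), the MAP kinase cascade (516 reads, 26 hosts), Stk (486 reads, 11 hosts), Cdk (218 reads, 12 hosts), Rps6k (217 reads, 5 hosts), Pik3 (147 reads, 8 hosts), Csnk (109 reads, 6 hosts), Pip4k and Pip5k (33 reads, 4 hosts) and Camk (6 reads, 1 host). Levels below are CPM of the reads of tested hosts after normalisation. On this scale 1 read equals 36.3 CPM in the deepest library, relapse 2, and 70.8 CPM in the shallowest, sham 2. Summed over its members, the Hipk family averaged 4095 ± 519 CPM in relapse, 3146 ± 716 in SG and 3208 ± 756 in sham. Summed Rps6k levels averaged 671 ± 487, 1175 ± 376 and 877 ± 143 CPM in relapse, SG and sham, with the SG libraries between 729.5 and 1550.1 and the sham libraries between 663 and 1038. Summed Pik3 levels averaged 606 ± 117 CPM in relapse, 569.7 ± 109 in SG and 833 ± 288 in sham. These sums are given as a description, and in each family the libraries of the groups overlapped.

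**Figure D1:**
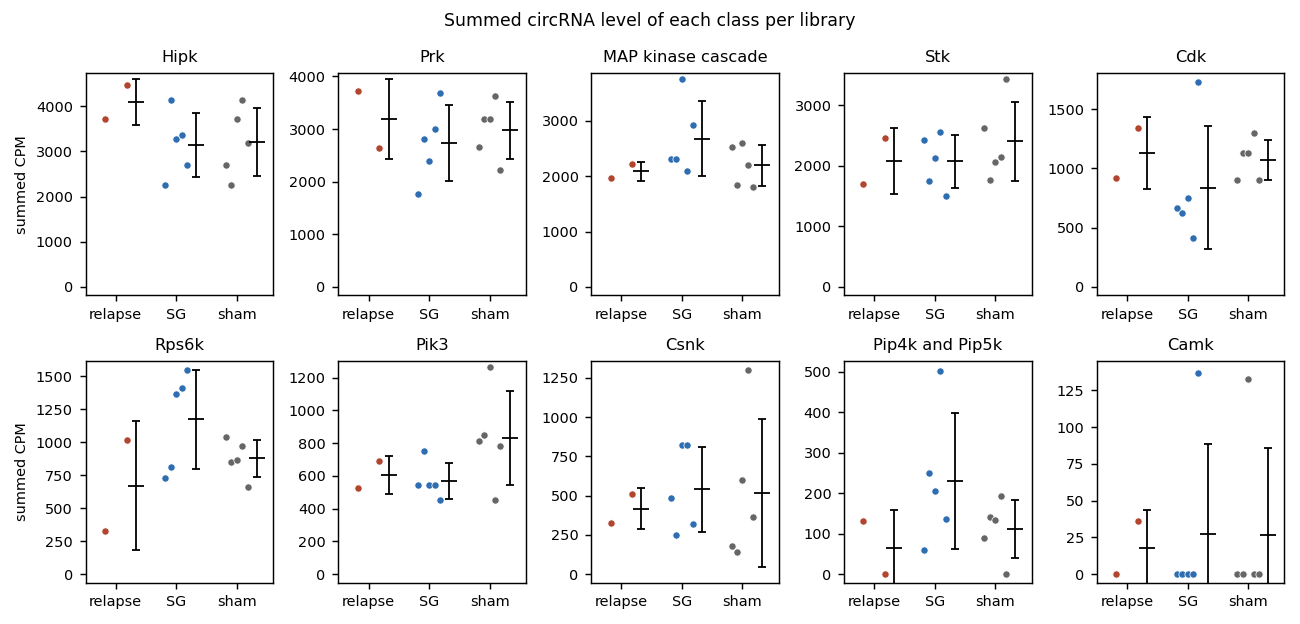
Summed circRNA level (CPM, linear axis) of each kinase family in every library; points are libraries, horizontal marks the group mean and bars the SD (relapse n = 2, SG n = 5, sham n = 5). The Hipk libraries lie at 3729 and 4462 CPM in relapse, 2249 to 4129 in SG and 2267 to 4149 in sham, and in all 10 panels the groups overlap.

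Hipk kinases are nuclear serine/threonine kinases, of which Hipk2 is known for phosphorylating p53. Hipk3, whose exon 2 circle is also widely described in human cells, was the most-read kinase host. It had 2289.5 and 3265 CPM in relapse libraries, 1337, 2440.0, 2189.9, 2052 and 2052 CPM in SG libraries, and 1805, 1629, 2993, 2528 and 1446 CPM in sham libraries. Relapse 2 was the highest of all, relapse 1 lay within the range of the other groups, and the SG and sham ranges overlapped, with sham 3 and sham 4 above every SG library. Hipk2 had 1439 and 1016 CPM in relapse, 851, 1689, 1026, 1323 and 547 in SG, and 902, 638, 732, 1621 and 1747 in sham. Its SG and sham libraries covered nearly the same range, and both relapse libraries fell inside it. Hipk1 had 9 reads, 5 of them in relapse 2, 4 in SG and 0 in sham libraries.

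Stk3 and Stk4 are the core kinases of the Hippo pathway, which restrains the transcriptional co-activator Yap and in mouse liver limits organ size. Stk3 had 1701 and 1741 CPM in relapse, 1277, 1189, 2053, 2189 and 1049 in SG, and 2166, 1063, 1529.5, 1556 and 2951 in sham. The highest library, sham 5, and the lowest, SG 5, belong to groups that otherwise overlap, and both relapse libraries lie in the middle. Stk4 had 0 and 617 CPM in relapse, 851, 563, 0, 274 and 410.3 in SG, and 451, 567, 333, 519 and 422 in sham, with no read in relapse 1 and SG 3. The other 9 Stk hosts were rare. Stk24 and Stk38l had 4 reads each and Stk17b had 3. Stk36 and Stk40 had 2 reads each, and Stk10, Stk11, Stk32c and Stk39 had 1 each. Stk11 encodes the kinase LKB1, which activates AMPK.

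In the MAP kinase cascade the upstream kinases held most reads. Map3k3, a MAP kinase kinase kinase, had 65.4 and 327 CPM in relapse, 426, 438, 479, 547 and 593 in SG, and 316, 779, 399, 648 and 542 in sham. Both relapse libraries lay below every SG library, and relapse 2 lay just above the lowest sham library. Map3k21, a mixed-lineage kinase, had 916 and 363 CPM in relapse, 122, 188, 547, 228 and 638 in SG, and 632, 638, 732, 389 and 120.5 in sham, and each group held both high and low libraries. Map3k2, a close relative of Map3k3, had 262 and 181 CPM in relapse, 547, 250.3, 411, 228 and 274 in SG, and 0, 70.8, 266, 0 and 422 in sham. It was read in every SG library, while 2 of the 5 sham libraries had no read. Map4k5, a kinase of the germinal-centre family upstream of the JNK pathway, had 0 and 327 CPM in relapse, 60.8, 813, 547, 319 and 182 in SG, and 0, 0, 266, 0 and 0 in sham. All 5 SG libraries thus had reads, 33 in all, of which SG 1 held 1, against 4 reads in sham, all in sham 3. That sham value lies inside the SG range.

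The MAP kinase kinases and MAP kinases themselves gave few reads. Mapk14, the stress kinase p38 alpha, had 37 reads, with 131 and 327 CPM in relapse, 0, 125, 205, 0 and 182 in SG, and 451, 0, 199.5, 0 and 241 in sham. Map2k4, which activates JNK and p38, had 30 reads: 1 in relapse, 18 in SG and 11 in sham. The JNK gene Mapk8 had 25 reads (3, 14 and 8 in relapse, SG and sham), and the p38 gamma gene Mapk12 had 25 (11, 3 and 11). Of the Map4k hosts, Map4k1 had 25 reads (2, 11 and 12) and Map4k3 had 24 (2, 14 and 8) under the naming rule. With a row outside that rule counted, the main junction of Map4k3 alone had 15, 17 and 21 reads in relapse, SG and sham. Map3k13 had 12 reads, Map3k4 had 7 and Map3k1 had 6. Map3k20, Mapk9, Mapk10 and the scaffold Mapk8ip3 had 3 reads each. Map2k5, Map3k10, Map3k14 and Map4k2 had 2 each, and Map3k9, Map4k4, Mapk11 and Mapk8ip1 had 1 each. Rows outside the naming rule hold another 45 reads of Map4k3, 34 of Map2k5 and 13 of Mapk14, as described below.

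Rps6k genes encode kinases of the ribosomal S6 kinase families. Rps6kc1, an S6 kinase-like protein with a lipid-binding PX domain, had 262 and 363 CPM in relapse, 426, 813, 616, 958 and 547 in SG, and 496, 496, 532, 454 and 542 in sham. Both relapse libraries were lower than every SG and every sham library. They held 4 and 10 reads, against 7 in each of SG 1, sham 2 and sham 4, the fewest outside relapse. Rps6ka5, which phosphorylates the transcription factor CREB and histone H3, had 65.4 and 653 CPM in relapse, 122, 0, 137, 410.5 and 866 in SG, and 316, 354, 333, 129.7 and 120.5 in sham. Its relapse and SG libraries spread far more than its sham libraries. Rps6kb1, the p70 S6 kinase that acts downstream of mTORC1, had no read in either relapse library, 182, 0, 616, 0 and 91.2 CPM in SG, and 180.5, 0, 0, 389 and 0 in sham. Of its 24 reads 14 were in SG and 10 in sham. Rps6ka1 had 2 reads and Rps6ka3 had 1.

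The Prk series joins several kinase types. Prkra, a double-stranded RNA-binding protein that activates PKR and binds Dicer, had 1505 and 1016 CPM in relapse, 790.3, 876, 547, 729.8 and 1459 in SG, and 902, 850.0, 865, 972 and 542 in sham. Both relapse libraries were higher than every sham library, and SG 5 reached the relapse level. Prkd3, a protein kinase D that answers to diacylglycerol, had 589 and 617 CPM in relapse, 547, 751, 411, 547 and 821 in SG, and 541, 638, 798, 454 and 602 in sham. Its coefficient of variation over the 12 libraries was 20.8%, below the 30.7% that counting error alone would give. Prkdc, the catalytic subunit of the DNA double-strand break kinase, had 262 and 181 CPM in relapse, 243, 250.3, 205, 547 and 228 in SG, and 180.5, 496, 399, 972 and 0 in sham.

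Except for Prkab1, the regulatory subunits of PKA and AMPK were read more than the catalytic chains of the same kinase. Prkar2a, a regulatory subunit of PKA, had 262 and 218 CPM in relapse, 0, 0, 684, 274 and 228 in SG, and 226, 0, 333, 0 and 181 in sham. Prkar1a had 9 reads, and the catalytic chain Prkaca had 2 and Prkx 1. For AMPK, the gamma subunits Prkag1 and Prkag2 had 30 reads (8 in relapse, 6 in SG, 16 in sham) and 28 reads (7, 9 and 12), the catalytic alpha subunit Prkaa2 had 10 (0, 1 and 9) and the beta subunit Prkab1 had 3. Of the 9 Prkaa2 reads in sham, 2, 4, 2 and 1 came from sham 1, 3, 4 and 5, too few to test. Protein kinase C genes were low: Prkch had 26 reads (8, 8 and 10), Prkca 14, Prkce 9, Prkci 6, and Prkcb and Prkcz 1 each. The protein kinase D relatives Prkd2 and Prkd1 had 6 and 5 reads, and Prkrip1 had 31 (3, 11 and 17).

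The insulin-linked PI3-kinase was represented mainly by its regulatory subunit. Pik3r1, the p85 alpha subunit that docks PI3-kinase to insulin receptor substrates, had 196 and 363 CPM in relapse, 365, 688, 137, 456 and 410.3 in SG, and 316, 850.0, 732, 129.7 and 482 in sham. The lowest and the highest library were both sham. The catalytic subunit Pik3cb had 27 reads (5, 6 and 16 in relapse, SG and sham), whereas Pik3ca had 4 and Pik3cd had 1. Pik3ap1 had 14 reads spread over 9 junctions. Pik3c3, the class III kinase of autophagy, had 8 reads (1, 0 and 7), its partner Pik3r4 had 1, and Pik3c2b had 1. Pip5k1b, which makes the PI3-kinase substrate phosphatidylinositol bisphosphate, had 2 and 0 reads in relapse, 1, 4, 3, 4 and 0 in SG, and 0, 1, 2, 2 and 0 in sham. Pip5k1a had 9 reads, Pip5k1c 3 and Pip4k2b 2.

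Among cyclin-dependent kinases those of transcription led and those of the cell cycle were nearly unread. Cdk12, which with cyclin K phosphorylates RNA polymerase II, had 196 and 979.5 CPM in relapse, 486, 125, 342, 365 and 729 in SG, and 406, 425, 865, 454 and 602 in sham. The extremes of the relapse pair enclosed all but 1 SG library. Cdk19, a kinase of the Mediator complex, had 327 and 145 CPM in relapse, 60.8, 438, 205, 0 and 684 in SG, and 271, 70.8, 199.5, 519 and 0 in sham. Cdk13 had 10 reads, Cdk17 and Cdk5rap2 had 9 each, Cdk5rap1 had 8 and Cdk11b had 7. The cell cycle kinases Cdk2 and Cdk6 had 3 and 2 reads, and Cdk14, Cdk18 and Cdk5rap3 had 1 each.

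Casein kinases are regarded as constitutively active and phosphorylate many proteins. Csnk2a1, the catalytic alpha subunit of casein kinase 2, had 131 and 109 CPM in relapse, 60.8, 188, 411, 684 and 45.6 in SG, and 90.2, 70.8, 466, 1037 and 0 in sham. It was the most uneven tested kinase host, with a chi-square of 6.62 per degree of freedom against equal levels, where counting error alone gives about 1, and SG 4 and sham 4 held 15 and 16 of its 57 reads. Over the tested kinase hosts this value ran from 0.453 to 6.62 with a median of 2.65, against a median of 2.84 over all tested hosts. Csnk1g1 had 29 reads (5, 13 and 11 in relapse, SG and sham), Csnk2a2 had 10, Csnk1g3 had 5, and Csnk1a1 and Csnk1d had 4 each. Camk1d, a calcium and calmodulin-dependent kinase, was the sole Camk host, with 1 read in relapse 2, 3 in SG 5 and 2 in sham 3.

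**Figure D2:**
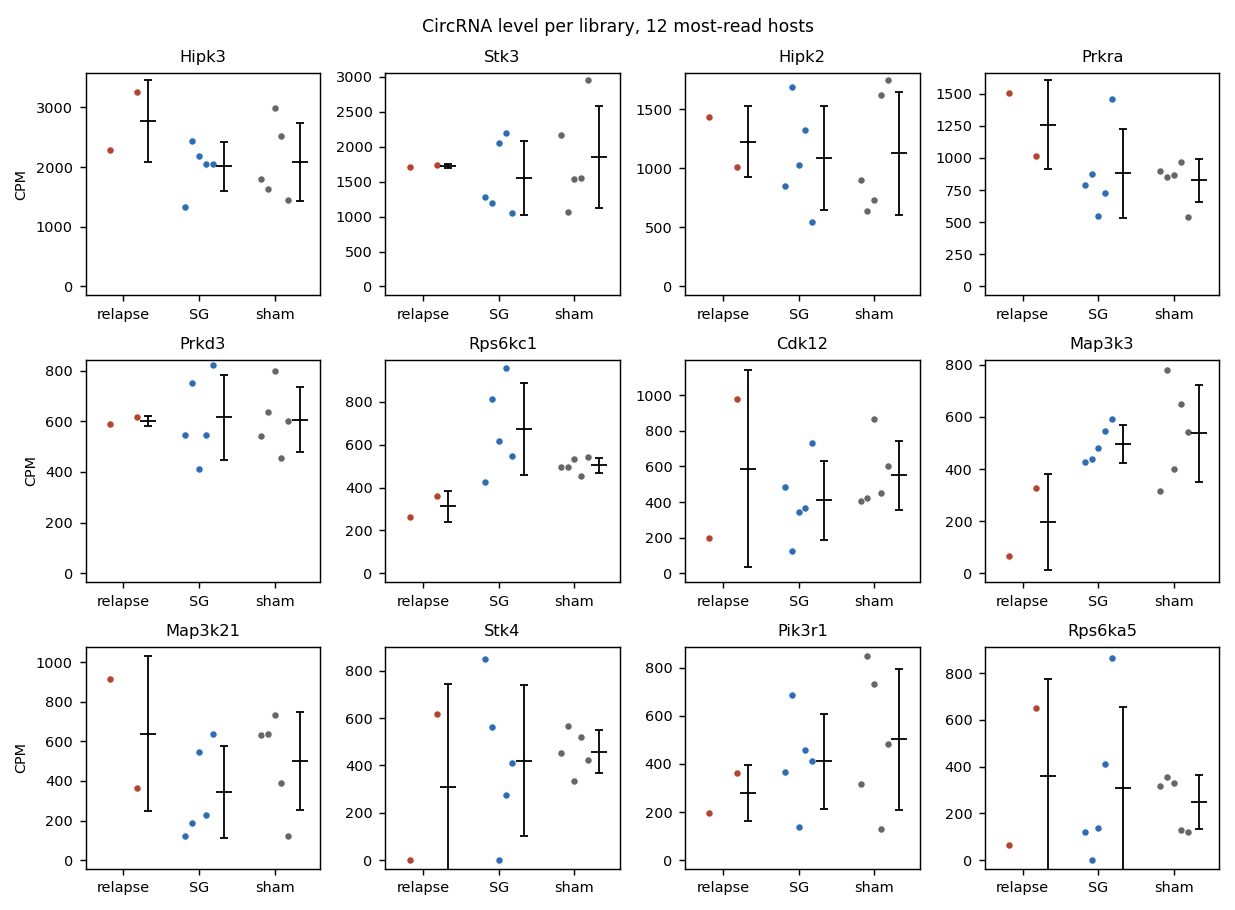
CircRNA level (CPM, linear axes) of the 12 most-read kinase hosts in every library; points are libraries, horizontal marks the group mean and bars the SD (relapse n = 2, SG n = 5, sham n = 5), with bars that would pass below 0 clipped by the axis. Rps6kc1 is lower in both relapse libraries (262 and 363 CPM, from 4 and 10 reads) than in every other library (426 to 958 CPM). Map3k3 and Prkra show the other groups that do not overlap.

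The circles behind these levels were few. Coordinates are those of the rat build Rnor_6.0, counted from 1. Of the 283 junctions 253 were called exonic (89.4%, against 86.4% of all junctions with a host) and 30 intronic, they lay on 21 chromosomes, and 172 were read in a single library (60.8%, against 60.2% of all junctions). Hipk3 reads came mainly from circRNA1692, the single exon 2 circle of 1098 bases on the minus strand of chromosome 3 (94396941 to 94398038). It held 448 of the 479 Hipk3 reads (93.5%), ranked 65 among all junctions, and had 34 and 85 reads in relapse, 22, 33, 29, 45 and 43 in SG, and 36, 18, 42, 37 and 24 in sham. A second Hipk3 circle of exons 5 to 7, circRNA1691, held 29 reads. Stk3 reads came mainly from circRNA1059, made of exons 2 to 4 (chromosome 7, 73834045 to 73848871, minus strand), with 342 of 374 reads. Prkra was nearly a one-circle host, since circRNA1668 of exons 4 to 6 (chromosome 3, 63497188 to 63500729, minus strand) held 202 of 203 reads.

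Single-exon circles of exon 2 recurred among the leading hosts. Besides Hipk3 they were the main circle of Prkd3 (circRNA1127, chromosome 6, 1613964 to 1614878, minus strand, 126 of 133 reads) and of Pik3r1 (circRNA1785, chromosome 2, 31816053 to 31816763, minus strand, 65 of 91 reads). Circles of exactly 1 exon held 24.1% of the exonic reads of kinase hosts, against 9.61% over all hosts, and they were 7.11% of the exonic junctions against 5.29%. Circles whose first exon was exon 2 were 63 of the 242 kinase junctions with exon numbers (26.0%, against 22.1% over all hosts) and held 52.7% of their reads, against 36.3%. None of the 242 began at exon 1, which over all hosts 74 junctions did (0.46%). Both read shares rest in part on circRNA1692: without it single-exon circles held 9.96% of the exonic kinase reads, close to the 9.61% over all hosts, and circles that begin at exon 2 held 43.0%. These shares are a description. The median circle had 3 exons in both sets and spanned 6181 bases of the genome, against 5551 over all hosts.

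Other main circles were circRNA864 of Map3k21 (exons 2 to 4, chromosome 19, 58759729 to 58764349, plus strand, 95 of 98 reads), circRNA4910 of Stk4 (exons 6 to 9, chromosome 3, 160491309 to 160495240, plus strand, 74 of 93 reads) and circRNA121 of Rps6kc1 (exons 3 to 5, chromosome 13, 109457219 to 109471561, minus strand, 71 of 118 reads). Cdk12 split its reads between circRNA426 of exons 10 and 11 (chromosome 10, 86199508 to 86200782, plus strand, 62 of 114 reads) and longer circles that begin at exon 3. Rps6ka5 had no leading circle, with 33.3% of 72 reads in circRNA4305 (exons 4 to 7, chromosome 6, 124596542 to 124629605, minus strand). For Csnk2a1 the main circle was circRNA4888 of exons 2 and 3 (chromosome 3, 147736964 to 147740988, plus strand, 41 of 57 reads). The table gives no exon numbers for circRNA5917 of Map3k3 (chromosome 10, 94307816 to 94320863, plus strand, 62 of 99 reads), circRNA2953 of Map3k2 (chromosome 18, 25007439 to 25008698, plus strand, 30 of 51 reads), circRNA6388 of Map4k5 (chromosome 6, 92153385 to 92154110, minus strand, 37 of 46 reads) and circRNA8099 of Rps6kb1 (chromosome 10, 73854212 to 73857079, minus strand, 23 of 24 reads). For Pip5k1b circRNA10400 had 8 of 19 reads, and for Camk1d ciRNA1855 had 3 of 6.

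Hipk2 differed from Hipk3 in how its main circles were called. Its main junctions, ciRNA179 (chromosome 4, 66470390 to 66473208, minus strand, 151 reads) and ciRNA178 (66463926 to 66473208, 62 reads), share one end and were called intronic. Another junction, circRNA1488, was called exonic, of exons 10 to 12, and its ends (66463927 and 66473205) lie within 5 bases of those of ciRNA178. It had 9 reads, of which 6 and 1 were in relapse libraries, 1 in SG and 1 in sham, while ciRNA178 had 2 and 18 in relapse, 28 in SG and 14 in sham. The junctions ciRNA179 and ciRNA178 come from rows that name the host by identifier, and circRNA1488 from a row that names it by symbol. Whether the nearly identical junctions ciRNA178 and circRNA1488 are one circle, and whether the intronic call is right, was not tested. Similarly close pairs occurred in Csnk2a1 and Map4k5, with 1 to 4 reads each.

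**Figure D3:**
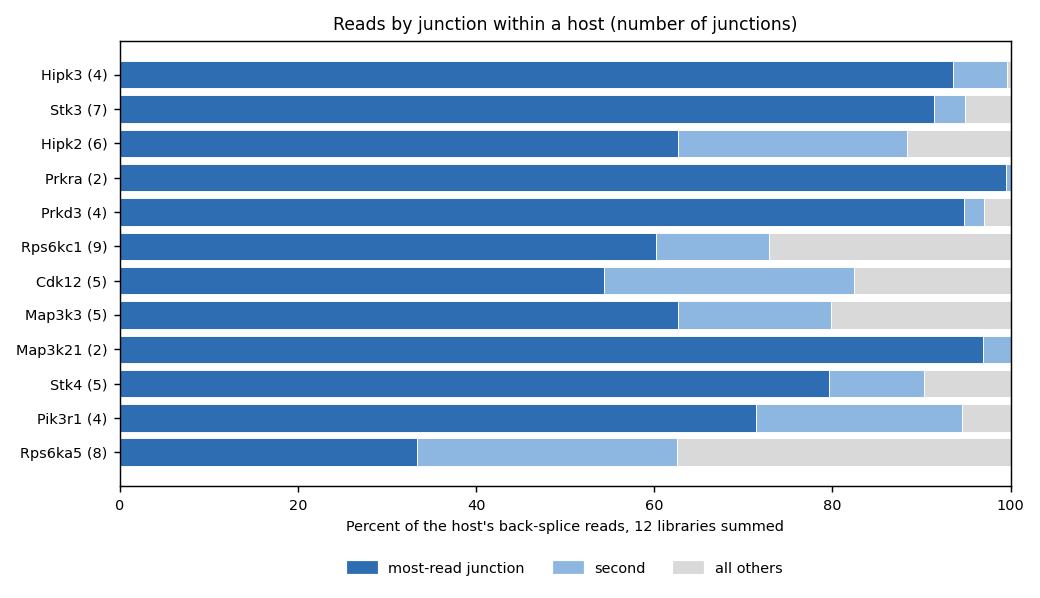
Share (percent, 12 libraries summed) of each host's back-splice reads in its most-read junction, its second and all others, for the 12 most-read kinase hosts; the number of junctions stands in parentheses. Prkra is at 99.5% in one junction of 2, Hipk3 at 93.5% of 4, and Rps6ka5 at 33.3% of 8.

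The table names hosts in 2 ways, and kinase reads depended on both. Rows that name the host by symbol held 2568 kinase reads and rows that name it by identifier held 524, from 19 identifiers. Among values above 0, a single read made up 39.2% in the symbol rows of kinase hosts and 5.94% in their identifier rows (38.1% and 1.68% over the whole table). Of the kinase junctions 13 were written once in each way, and in all 13 no library had reads in both rows. Over the whole table the same held for 794 of 808 such junctions. Identifier rows held 213 of the 241 Hipk2 reads, 72 of the 99 Map3k3 reads, 37 of the 46 Map4k5 reads, 30 of the 51 Map3k2 reads and 23 of the 24 Rps6kb1 reads. Most reads of these hosts thus lie in rows where single reads are scarce. This bears on the libraries with 0 reads of Map4k5, Rps6kb1 and Map3k2, and on relapse 1, which had 1 read of Map3k3. Whether low counts are missing from such rows was not tested. Another 15 identifier rows belong to kinase hosts by their gene record but share no transcript with a symbol row, so they are outside the 96 hosts as counted. They hold 114 reads: 45 of Map4k3, 34 of Map2k5, 13 of Mapk14, 10 of Cdk12, 6 of Hipk3, 4 of Pip5k1b and 2 of Rps6ka1.

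Levels were compared between groups over libraries. The filter on low counts left 22 of the 96 kinase hosts (22.9%, against 21.0% of all hosts), which held 82.5% of the kinase reads, and 20 of their junctions. The remaining 74 hosts did not pass this filter, which asks for a minimum in single libraries as well as in total. Prkrip1, with 31 reads over 10 libraries, was left out, while Rps6kb1, with 24 reads over 5 libraries, was tested. Each comparison was one contrast of a single edgeR fit of 1368 hosts, and the 3 contrasts share libraries, so they are not independent of each other. In none of them did a kinase host pass the false discovery rate of 0.05 in edgeR, and neither limma-voom nor DESeq2 called one.

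The first comparison asked what sleeve gastrectomy changed relative to the sham operation. Of the 22 tested kinase hosts 0 were called, against 2 of all 1368 hosts (0.146%), and 1 kinase host, Map4k5, had an unadjusted p under 0.05, against 45 of all hosts (3.29%). Map4k5 averaged 385 ± 300.2 CPM in SG and 53.2 ± 119 CPM in sham (SD, n = 5 each). Its log2 fold change was 2.76 (SE 1.15, 95% interval 0.45 to 5.07, edgeR adjusted p = 0.994). It was above the sham mean in 5 of 5 SG libraries, in SG 1 with 1 read. No sham library held 5 reads of Map4k5, the minimum count of the filter. The host was thus tested because of libraries outside sham, and its unadjusted p is not separate support for a difference. Without sham 3 no sham read was left, and the adjusted p was 0.309. At its junction circRNA6388 the log2 fold change was 2.25 (SE 1.36, edgeR adjusted p = 0.996). Map3k2 averaged 342 ± 135 CPM in SG and 152 ± 186 CPM in sham, again above the sham mean in 5 of 5 SG libraries, with a log2 fold change of 1.15 (SE 0.93, interval -0.71 to 3.00, adjusted p = 0.994). That value was 0.79 without sham 1 and 1.99 without sham 5. Neither host separated the groups, since at least 1 sham library lay inside the SG range.

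For the most-read hosts the SG and sham means were close and the intervals were the narrowest. Hipk3 averaged 2014 ± 410.2 CPM in SG and 2080.1 ± 655 CPM in sham, a log2 fold change of -0.04 (interval -0.60 to 0.51). Stk3 averaged 1551 ± 529 CPM in SG and 1853 ± 728 CPM in sham (log2 fold change -0.26, interval -0.88 to 0.35). Hipk2 averaged 1087 ± 438 CPM in SG and 1128 ± 518 CPM in sham (-0.06, interval -0.79 to 0.67). Prkra averaged 880.5 ± 345 CPM in SG and 826 ± 166 CPM in sham (log2 fold change 0.10, interval -0.66 to 0.87), and Prkd3 averaged 615 ± 167 CPM in SG and 607 ± 128 CPM in sham (0.03, interval -0.88 to 0.95). For these 5 hosts the interval lay within a 2-fold change either way, and for 14 of the 22 it lay within 4-fold. The intervals of the other tested hosts reached beyond 2-fold in at least one direction. The median log2 fold change of the 22 hosts was -0.05, against 0.03 over all tested hosts, with 10 higher and 12 lower in SG. The remaining named hosts had log2 fold changes of 0.41 (Rps6kc1, SE 0.49), -0.39 (Cdk12, SE 0.55), -0.09 (Map3k3, SE 0.54), -0.52 (Map3k21, SE 0.59), -0.12 (Stk4, SE 0.65), -0.26 (Pik3r1, SE 0.59), 0.34 (Rps6ka5, SE 0.80), -0.23 (Csnk2a1, SE 0.88) and 0.56 (Rps6kb1, SE 1.42). No kinase host had SG and sham libraries that did not overlap, against 13 of all hosts (0.95%), 9 of them higher (0.658%) and 4 lower (0.292%) in SG.

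The second comparison set relapse against SG. Here 0 of the 22 kinase hosts were called, against 2 of all hosts (0.146%), and 0 had an unadjusted p under 0.05, against 56 of all hosts (4.09%). Rps6kc1 and Map3k3 were the kinase hosts whose relapse libraries did not overlap with SG, both lower in relapse, against 129 of all hosts in either direction (9.43%), 66 higher (4.82%) and 63 lower (4.61%). Rps6kc1 averaged 312 ± 71.5 CPM in relapse (n = 2) and 672 ± 213 CPM in SG (n = 5), a log2 fold change of -1.07 (SE 0.68, interval -2.43 to 0.30, edgeR adjusted p = 0.9997). Map3k3 averaged 196 ± 185 CPM in relapse and 497 ± 71.8 CPM in SG, a log2 fold change of -1.20 (SE 0.78, interval -2.76 to 0.36, adjusted p = 0.9997), and its value was -2.83 without relapse 2 and -0.53 without relapse 1. The relapse 1 value of Map3k3 is 1 read, and 72 of the 99 Map3k3 reads lie in identifier rows, where single reads were scarce. Rps6kb1 had 0 reads in relapse and 14 in SG, of which SG 3 alone held 9. Of the 5 SG libraries 2 had no read either, so no fold is given. Hipk3 averaged 2777 ± 689.8 CPM in relapse and 2014 ± 410.2 CPM in SG (log2 fold change 0.47, SE 0.35, interval -0.24 to 1.18), and Map3k21 averaged 639 ± 391 CPM in relapse and 345 ± 232 CPM in SG (0.83, SE 0.74). Without relapse 1 these values were 0.77 for Hipk3 and 0.14 for Map3k21, and without relapse 2 they were 0.15 and 1.35. Stk3 alone had an interval within 2-fold either way (log2 fold change 0.15, -0.65 to 0.95). The median over the 22 hosts was -0.15, against -0.07 over all tested hosts.

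The last comparison set relapse against sham. Again 0 kinase hosts were called, against 1 of all hosts (0.0731%), and 0 had an unadjusted p under 0.05, against 76 of all hosts (5.56%). Relapse and sham libraries did not overlap in 2 kinase hosts, against 144 of all hosts (10.5%). Prkra, higher in relapse (as were 73 of all hosts without overlap, 5.34%), averaged 1260.2 ± 346 CPM in relapse and 826 ± 166 CPM in sham, a log2 fold change of 0.59 (SE 0.48, interval -0.37 to 1.55, edgeR adjusted p = 0.983). Rps6kc1, lower in relapse (as were 71 of all hosts, 5.19%), averaged 312 ± 71.5 CPM in relapse and 504 ± 34.9 CPM in sham (log2 fold change -0.65, SE 0.68, interval -2.02 to 0.71, adjusted p = 0.983). Map3k3 averaged 196 ± 185 CPM in relapse and 537 ± 186 CPM in sham (log2 fold change -1.29, SE 0.78, adjusted p = 0.890), with -2.92 without relapse 2 and -0.61 without relapse 1. Rps6kb1 had 0 reads in relapse and 10 in sham, 4 of them in sham 1 and 6 in sham 4, with no read in the other sham libraries. Map4k5 averaged 163 ± 231 CPM in relapse and 53.2 ± 119 CPM in sham (log2 fold change 1.68, SE 1.39), all of it from relapse 2, and the value was -2.99 without that library. Hipk3 averaged 2777 ± 689.8 CPM in relapse and 2080.1 ± 655 CPM in sham (log2 fold change 0.43, SE 0.35). The median over the 22 hosts was 0.10, against -0.06 over all tested hosts.

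**Figure D4:**
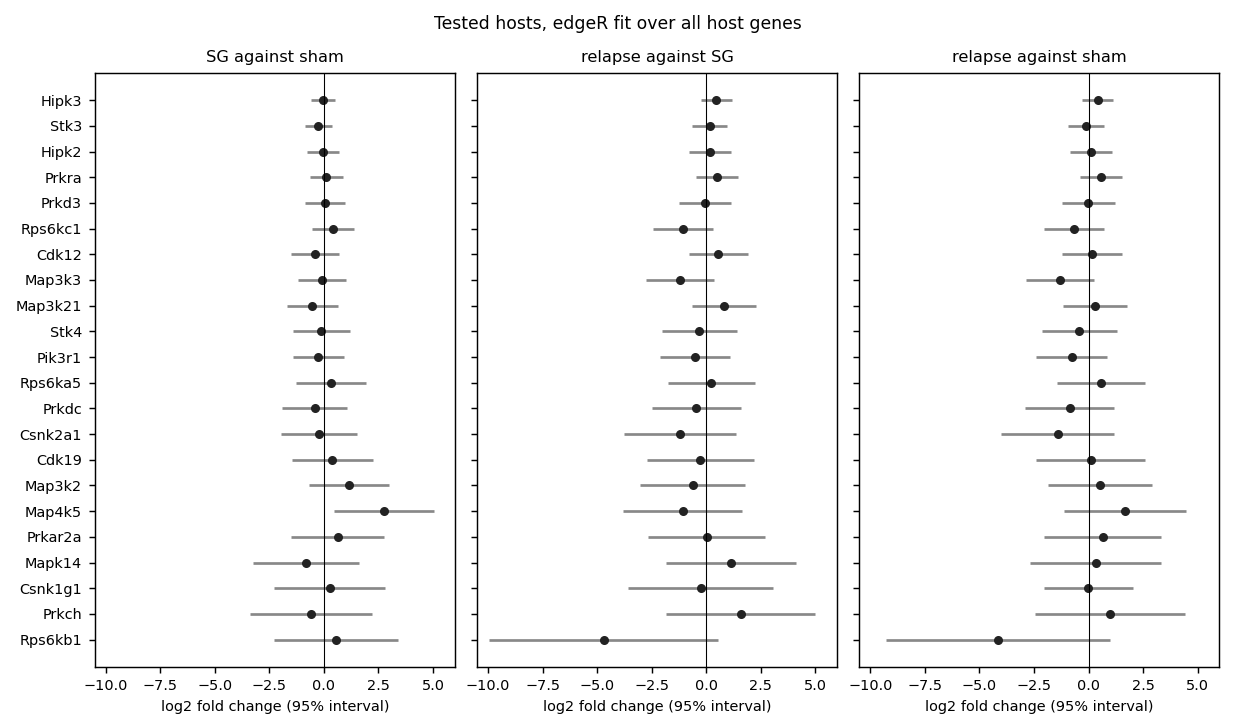
Log2 fold change (dots) with its 95% interval (bars) of the 22 tested kinase hosts in SG against sham, relapse against SG and relapse against sham, ordered from most-read (top) to least-read, from one edgeR fit over 1368 hosts. All intervals cross 0 except that of Map4k5 in SG against sham (0.45 to 5.07), whose edgeR adjusted p was 0.994. No sham library held 5 reads of Map4k5, the minimum count of the filter. The fitted values of Rps6kb1 in the relapse comparisons rest on 0 relapse reads and depend on the prior count.

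Single junctions were compared in the same way. Of the 20 tested kinase junctions 0 were called in SG against sham, in relapse against SG and in relapse against sham, against 0 of all 1519 junctions in each (0.0%), and none had an unadjusted p under 0.05. Of all junctions 59 (3.88%), 73 (4.81%) and 88 (5.79%) did. The exon 2 circle of Hipk3 had log2 fold changes of -0.01 (SE 0.28) in SG against sham, 0.53 (SE 0.36) in relapse against SG and 0.52 (SE 0.36) in relapse against sham. Some main junctions went another way than their host in SG against sham, none past the threshold. The log2 fold change of circRNA121 was -0.22 (SE 0.65), against 0.41 for its host Rps6kc1, and that of circRNA1785 was 0.40 (SE 0.74), against -0.26 for its host Pik3r1. In Hipk2 the value was -0.38 (SE 0.47) for ciRNA179 and 0.89 (SE 0.85) for ciRNA178. A junction of Map4k3, whose host did not pass the filter under the naming rule, was tested because an identifier row outside the rule brought it to 53 reads. The main junction of Mapk14 also includes reads outside the rule, with 16 reads in SG against 9 for its host. Its log2 fold change in SG against sham was 0.03 (SE 1.11), against -0.82 (SE 1.21) for the host.

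Genes that work with these kinases were listed in 6 groups, and 0 were called in any comparison by edgeR. Of the MAP kinase pathway partners 20 of 39 were read and 7 tested. The smallest p was that of Nf1, which restrains Ras, with 1709.8 ± 660.3 CPM in relapse and 1003 ± 253 CPM in sham (log2 fold change 0.79, SE 0.42, adjusted p = 0.856). Of the insulin, PI3-kinase, Akt and mTOR partners 24 of 32 were read and 6 tested. The insulin receptor gene Insr had the smallest p, with 563 ± 333 CPM in relapse and 1163 ± 501 CPM in sham (-0.99, SE 0.53, adjusted p = 0.856). Of the LKB1, AMPK and PKA partners 26 of 33 were read and 8 tested, with the phosphodiesterase Pde3b first, at 569.7 ± 528 CPM in relapse and 1129 ± 291 CPM in sham (-0.89, SE 0.52, adjusted p = 0.865). Of the Hippo partners 19 of 25 were read and 9 tested, with the transcription factor Tead1 first, at 3184 ± 525 CPM in relapse and 1978 ± 419 CPM in sham (0.68, SE 0.33, adjusted p = 0.856).

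Of the phosphoinositide phosphatases and effectors 31 of 36 were read and 12 tested. The class II PI3-kinase Pik3c2g, set apart from the kinase hosts here, had the smallest p, with 4564 ± 1213 CPM in SG and 7095 ± 1430 CPM in sham (-0.63, SE 0.22, adjusted p = 0.915). Of 86 other protein kinases 72 were read and 26 tested, with Irak3, which dampens Toll-like receptor signals, first at 1142 ± 436 CPM in SG and 436 ± 105 CPM in sham (1.36, SE 0.43, adjusted p = 0.558). Medians of the 6 groups lay between -0.27 and 0.26 in SG against sham, between -0.18 and 0.41 in relapse against SG, and between -0.19 and 0.27 in relapse against sham, on the log2 scale. The same medians over all tested hosts were 0.03, -0.07 and -0.06.

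The pathway annotation in the authors' deposited table covered 72 of the 96 kinase hosts (75.0%), against 43.9% of all hosts. Its largest entry was the MAPK signaling pathway, with 30 kinase hosts of 137 hosts, led in reads by Stk3 and Map3k3. FoxO signaling and insulin signaling held 18 kinase hosts each, and insulin resistance held 17. Pik3r1 was the most-read kinase host of both insulin entries. Since kinases were chosen by name, this is a description of the list and no test was made.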

How the data were processed

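CircRNAs were sequenced in 12 rat liver libraries depleted of ribosomal RNA and treated with RNase R, which digests linear RNA, per the labels' protocols. The submitters' processing notes name cutadapt 1.9, FastQC, TopHat2 2.0.10 and Rnor_6.0, and the back-splice caller is not given in the sources used here. The deposited table holds back-splice read counts per circRNA and library. The authors' SRPBM, a normalised score, was the count times 1 constant per library and was not used. The deposited number of exons per circRNA served to describe the circles. Symbol rows give starts counted from 0 and identifier rows from 1: 808 pairs of rows matched at an offset of 1 and none at 0. All starts were counted from 1, and such pairs were summed as 1 junction. Intergenic rows (833, with 10.3% of the reads) entered no host.

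Counts were summed per host, with identifiers joined by shared transcript, and per junction. Tests used edgeR 4.0.16 in R 4.3.3, with TMM, filterByExpr (minimum count 5, total 15), 1 fit of 3 group means, the robust quasi-likelihood F-test and Benjamini-Hochberg adjustment over all hosts or junctions. SEs were the log2 fold change over the root of F. CPM are counts-per-million of the normalised reads of tested hosts. Alternatives used limma 3.58.1 (voom), DESeq2 1.42.0, other filters, other joins, and fits without each library. Scripts were tested on simulated data.

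The members, the lists of partner and marker genes and the tests were chosen with earlier results of these data known. Named hosts are the 12 most-read, the 5 of smallest p in each comparison, the most-read of each family, any called, and any whose SG and sham libraries did not overlap, each with its most-read junction. Other members are given by their reads, except 1 that is not reported here. From each partner list the gene of smallest p is named. Libraries of the same replicate number showed no sign of pairing, which so few libraries cannot exclude. No 2 libraries of a group agreed within sampling noise. Intervals of counts cover counting error only.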

Additional observations from a re-analysis of the deposited data

Results flagged for a closer look

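In the 18 named kinase hosts 36 groups of 5 libraries were examined for a library far from the others of its group, and 4 stood out. For continuous values chance would give about 1 in 20 groups, but in 3 of the 4 the other libraries of the group had 0 reads, where any read stands out. Prkra in sham 5 was low, at 542 CPM, against 850.0 to 972 CPM in the other sham libraries. Map4k5 in sham 3 was at 266 CPM, from 4 reads, with 0 reads in the other sham libraries. Camk1d in SG 5 was at 136.8 CPM, from 3 reads, with 0 reads in the other SG libraries. Camk1d in sham 3 was at 133 CPM, from 2 reads, with 0 reads in the other sham libraries.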

How the results depend on the processing

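No kinase host or junction was called in any of the 129 counts made under other settings. For 24 log2 fold changes of named hosts, 494 alternative values were computed: 471 kept their direction, 23 reversed and 0 passed the threshold, with a smallest adjusted p of 0.309 (Map4k5 in SG against sham). Of the reversed values all but that of Map4k5, given last, were in SG against sham. With limma-voom Map3k3 was 0.036 and Rps6ka5 -0.20, and with the replicate block Rps6ka5 was -0.11. Pik3r1 was 0.067 with symbol rows alone and 0.045 with host names as written. Leaving out 1 library at a time gave ranges of -0.27 to 0.14 for Hipk2, -0.16 to 0.11 for Hipk3, -0.24 to 0.076 for Map3k3, -0.50 to 0.0019 for Pik3r1, -0.13 to 0.14 for Prkd3, -0.19 to 0.22 for Prkra, -0.54 to 0.64 for Rps6ka5 and -0.53 to 0.17 for Stk4. For Map4k5 in relapse against sham the range was -2.99 to 4.74. The cause of these moves was not tested.

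Counts over all hosts moved among 0 to 4. In SG against sham 2 hosts became 0 with DESeq2, a minimum count of 10, 2 groups alone, the replicate block and host names as written, and 1 with no filter and with symbol rows alone. In relapse against SG 2 hosts became 0 with a minimum count of 10, symbol rows alone, 2 groups alone, the replicate block and names as written, 3 with no filter, and 1 with identifiers joined by gene record, an alternative chosen after seeing the data. In relapse against sham 1 host became 2 with DESeq2 size factors in edgeR and with the gene record, 3 with limma-voom and with no filter, and 0 with 2 groups alone and the replicate block. Left-out libraries gave 0 to 3, 0 to 4 and 0 to 4 hosts in the order of the comparisons, and 0 to 2, 0 to 9 and 0 to 8 junctions. Called junctions became 1, 2 and 1 with the replicate block. With no filter they became 2 in relapse against SG and 1 in relapse against sham, and with limma-voom 1 in relapse against sham. Symbol rows alone put the kinase share at 1.39% in relapse, 1.20% in SG and 1.25% in sham, and the gene record put it at 1.16% in relapse. Same-numbered libraries correlated between -0.074 and 0.0275 in their deviations, so the block rests on shared numbers alone.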
